A study of Mus musculus with 58 samples.

Results

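The genes described here make ribosomes: the precursor ribosomal RNA Rn45s and the proteins that transcribe, cut, modify and fold it. Members were taken from the deposited table by gene symbol, as Nop, Utp, Rrp or Nol followed by a digit, Polr1a to Polr1e, or 1 of 22 further listed symbols. The rule found 55 of the 11603 rows of the table, which carry 54 distinct symbols because Heatr1 has 2 rows. Of the 22 listed symbols, Bop1, Bysl and Nsa2 were not analysed here. By role, 1 row is the precursor itself, 5 are RNA polymerase I subunits, 23 act in small subunit assembly and 13 in large subunit assembly. A further 7 belong to the particles that modify rRNA and 4 are multifunctional nucleolar proteins. The remaining 2, Nol4l and Nol7, were matched by name and given no role here.

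Ribosomes are assembled in the nucleolus, where RNA polymerase I transcribes the tandem ribosomal DNA repeats into a long precursor. Small nucleolar RNA particles of the box C/D and H/ACA kinds guide methylation and pseudouridine formation on that precursor, while assembly factors cut it and fold it into the small and large subunits. The process is known as a major cost of cell growth and as a target of nutrient signalling through mTOR and Myc, and brown and beige adipocytes remodel their mass and protein content with temperature.

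The mRNA measurements were made on 22 libraries from C57BL/6J mice of the Ucp1-NuTRAP and Adipoq-NuTRAP lines, in which Cre recombinase driven from Ucp1 or from Adipoq switches on a GFP tag on ribosomes and a label on nuclei. RNA bound to tagged ribosomes was pulled down with an antibody to GFP, depleted of rRNA with Ribo-Zero and sequenced, so each value describes RNA recovered with the ribosomes of cells with a history of Cre. Which line gave which library, and the age of the mice, were not given in the sources used here. All mice carried the reporter, and the 36 chromatin samples of the series were not used here.

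Of the 5 groups, cold brown (n = 5) is the interscapular brown depot after 1 week at 4 °C. Warm brown (n = 5) is the same depot after that cold exposure and 4 further weeks at 30 °C. Cold beige (n = 4) and warm beige (n = 3) are inguinal fat under those same regimes. Warm white (n = 5) is inguinal fat from animals that lived at 30 °C from birth. Each library is labelled a biological replicate, but which animals were shared between groups is not stated, so p-values measure the spread between these samples.

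Values are log2 CPM, the share of a library's counted reads that fall on a gene, scaled to a fixed total, and a difference is a log2 fold change with its standard error from 1 limma fit over all 5 groups and all rows. A member was called where the adjusted p was at or below 0.05 over the 11603 rows. All 10 adipocyte markers listed were measured, with Adipoq, the adipokine adiponectin, at group means of 9.36 in cold and 9.61 in warm brown, 8.56 in cold and 9.31 in warm beige, and 10.11 in warm white. Ucp1, the uncoupling protein of thermogenic fat, averaged 12.15, 8.84, 11.34, 1.03 and -2.82 in the same order. Markers of other cell types moved along with the groups. The 12 fibroblast and preadipocyte markers summed to 65.4 to 126 CPM in cold and 579 to 746 in warm brown, 1625 to 2092 in cold and 8082 to 12056 in warm beige, and 12316 to 14813 in warm white. The sum of 12 endothelial markers spanned 60.2 to 210, 143 to 253, 188 to 396, 613 to 952 and 61.4 to 92.2 CPM in that order, and 9 of 12 macrophage markers gave 8.83 to 14.6, 21.0 to 32.0, 59.9 to 100.0, 173 to 193 and 81.9 to 137. The 10 measured skeletal muscle markers of 12 summed to 310 to 374, 95.1 to 129, 83.1 to 122, 47.8 to 279 and 9.68 to 450 CPM. These sums hide opposite changes within the list. In warm beige minus cold beige, 8 of the 10 were called higher and 2 lower, beside 36% and 36.9% of all rows. The median log2 change of the 10 was 4.58, and the 2 lower ones were Mb (-4.24) and Des (-1.75). No marker on these lists was at the floor of the table in all 22 libraries, and their part in the results below was not tested. In bulk samples such as these, fewer cells of a type and less RNA per cell cannot be told apart.

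The members changed in both directions on warming, in beige and in brown fat alike. In beige fat (warm beige minus cold beige), 19 members were called higher and 15 lower, while 21 were not called. Of all 11603 rows, 36% were called higher and 36.9% lower in that comparison. The median log2 change was 0.04 over the members and 0.03 over all rows. In brown fat (warm brown minus cold brown), 23 members were called higher and 12 lower, beside 41.2% and 30.1% of all rows. There the median was 0.09 over the members and 0.13 over all rows. The members' medians and shares of higher calls were near those of the table in both fats, and their shares of lower calls were smaller.

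Some members separated the temperatures fully, at rates near or below those of all rows. In beige fat, 19 members had every warm library above every cold one and 11 had every warm library below, as did 32.9% and 33.5% of all rows. In brown fat the counts were 15 above and 10 below, beside 35.3% and 27.6% of all rows. Called in both fats were 14 members that rose, among them Rn45s, Gar1, Dkc1, Ncl, Npm1, Imp3, Rrs1 and Rrp1b. A further 8 fell in both, among them Imp4, Polr1d, Polr1e and Nol12. The share of all rows called alike in both fats was not computed, so these 2 counts have no baseline. Nop10 and Polr1a were called lower in beige and higher in brown fat. Within the batches read from the values, 33 of the 34 members called in beige fat had the same sign in batch 1 and all 34 in batch 2. All 35 called in brown fat had the same sign in both. Each batch is a part of the libraries that gave these calls, so the shared signs are largely built in and are no independent check.

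The split between higher and lower calls moved with the scaling of the libraries. With libraries set to a common total, 25 members were called higher and 12 lower in beige fat and 26 and 7 in brown fat. The shares of all rows were then 41.5% and 31.3% in beige and 48.9% and 23.4% in brown fat. The median of all rows shifted up by 0.15 in each. Leaving Rn45s out of the totals gave 26 higher and 12 lower in beige fat and 26 and 7 in brown fat, with shifts of 0.21 and 0.16. Beside them stood 44.4% and 29.3% of all rows in beige fat, and 49.2% and 23.3% in brown fat. Quantile normalization gave 12 higher and 18 lower in brown fat with a shift of -0.14, beside 32.6% and 32.9% of all rows. Median-of-ratios scaling gave 11 and 19 with a shift of -0.11, beside 35.6% and 35.7%. Under all 5 scalings, 18 of the 19 higher and 12 of the 15 lower calls in beige fat were kept, against 7 of 23 and 7 of 12 in brown fat. The share of calls kept over all rows was not computed.

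**Figure D1:**
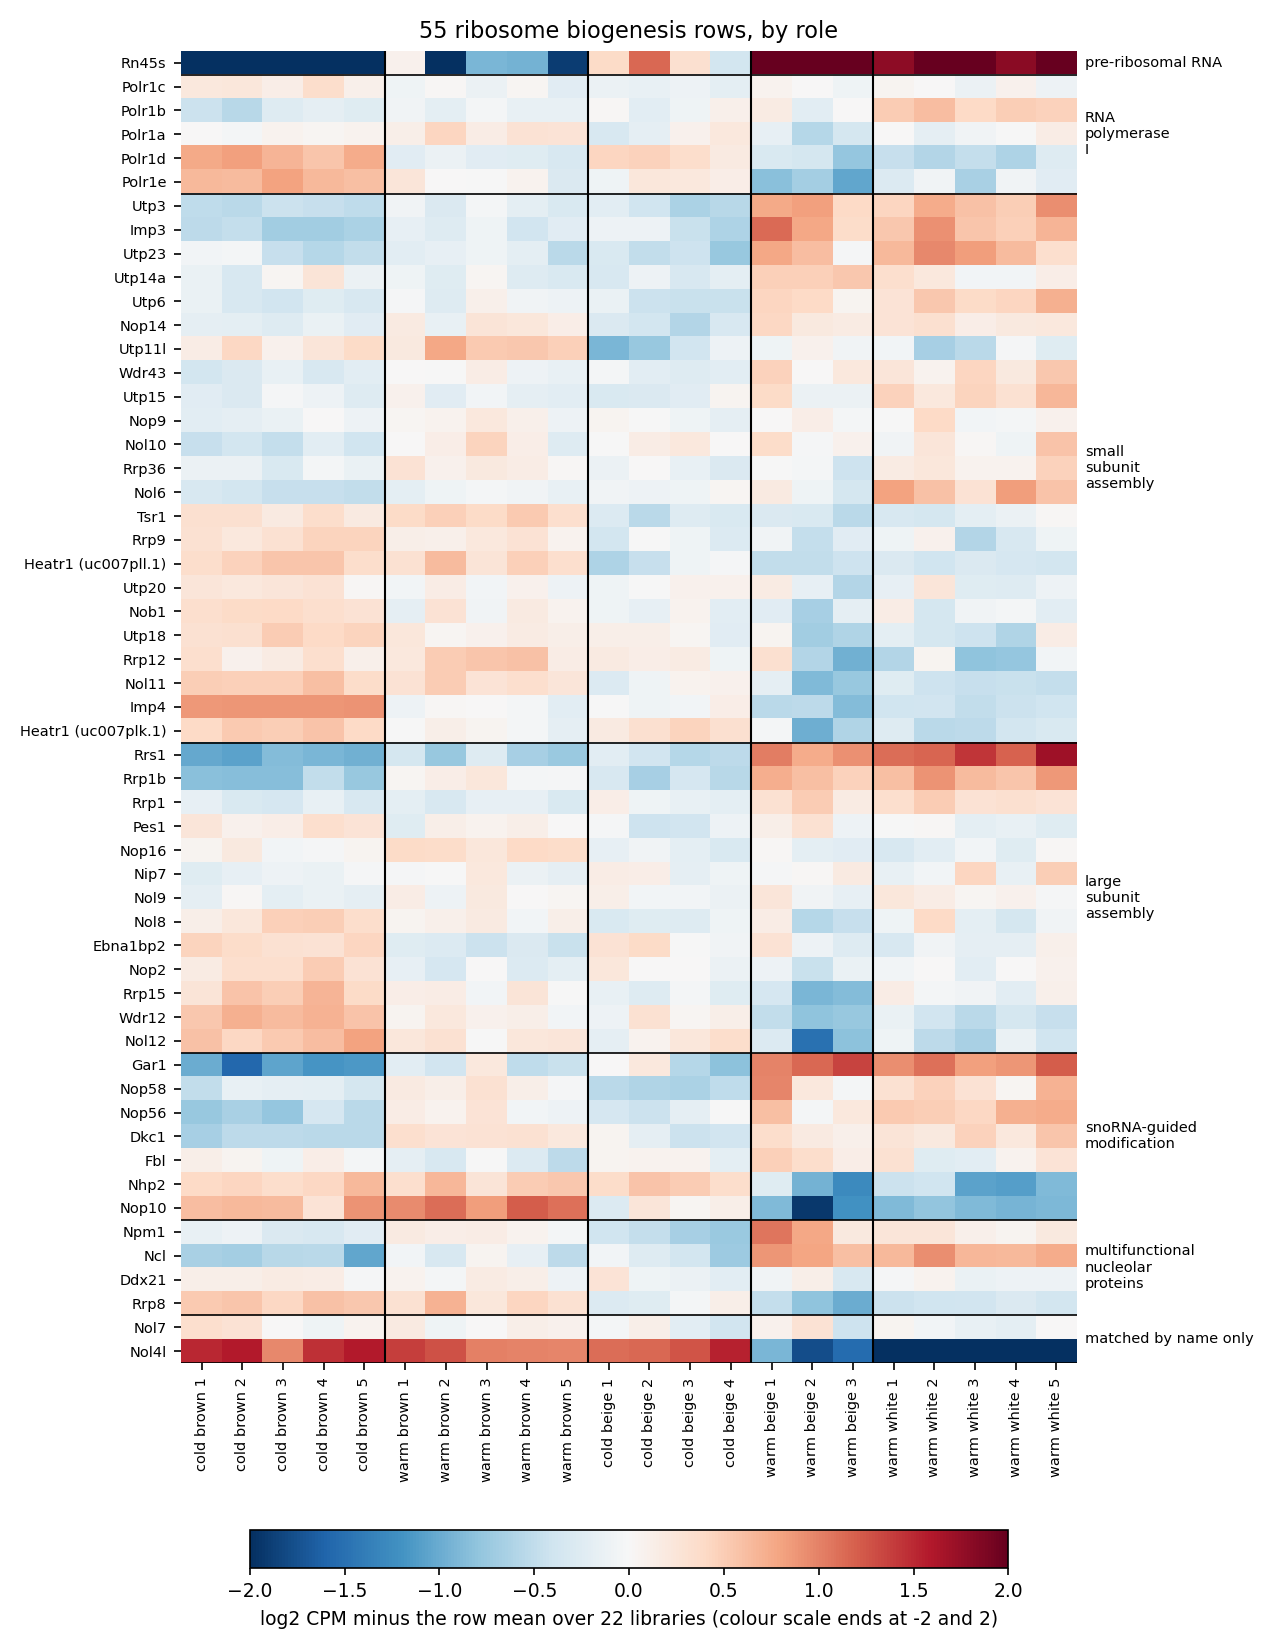
Heat map of the 55 members (rows, ordered by role and within a role by the change on beige warming) in the 22 libraries (columns, by group), as log2 CPM minus the mean of the row, with a colour scale that ends at -2 and 2. Rn45s and Nol4l run in opposite directions from the brown to the warm inguinal groups, and most other rows stay near the middle of the scale.

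Rn45s, the row named for the precursor transcript, was the member with the largest increase in both fats. In brown fat its log2 CPM values were 10.10, 9.90, 9.23, 9.28 and 9.43 in cold brown and 12.52, 10.04, 11.52, 11.49 and 10.54 in warm brown. Inguinal fat gave 12.82, 13.59, 12.76 and 12.07 in cold beige, 15.39, 15.78 and 15.18 in warm beige, and 14.23, 14.56, 14.53, 14.25 and 14.51 in warm white. The inguinal groups lay above both brown groups apart from the overlap of warm brown with the lower end of cold beige, and within each fat the warm and cold libraries overlapped only in brown fat, where warm brown 2 at 10.04 was below cold brown 1 at 10.10. On warming Rn45s rose by 2.64 ± 0.40 (SE, adjusted p = 3.78e-06) in beige and by 1.63 ± 0.33 (SE, adjusted p = 0.000142) in brown fat. The difference between the 2 fats, 1.01 ± 0.52 (SE, adjusted p = 0.117), did not pass the test. After quantile normalization it was -0.85 (adjusted p = 0.217). Rn45s was the highest row in every warm beige library, and that scaling gives the highest row the same value in each library. The value of Rn45s in warm beige is thus bounded by its rank, so -0.85 cannot be read as a change of direction.

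Warm brown was the most uneven group for this row. The SD of Rn45s there was 0.96, against a median of 0.10 over the 5513 rows with a mean above 5 log2 CPM over all libraries and at most 0.29 (Gar1) among the other members. Of those 5513 rows, the share with a smaller SD than Rn45s was 98.8% in cold brown, 99.7% in cold beige, 83.9% in warm beige and 59.5% in warm white. Without warm brown 1, the library with the highest value at 12.52, the difference between the fats was 1.33 (adjusted p = 0.0174). Without warm brown 2, the lowest of the group at 10.04, it was 0.71 (adjusted p = 0.221). No other omission of a single library led to a call.

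Between depots, Rn45s was higher in cold beige than in cold brown by 3.22 ± 0.35 (SE, adjusted p = 8.23e-08) and higher in warm beige than in warm brown by 4.23 ± 0.38 (SE, adjusted p = 1.37e-09). Quantile normalization, which bounds the warm beige value by its rank, reduced the beige warming value from 2.64 to 1.42. The difference between the warm depots went from 4.23 to 2.44 under the same bound. Against warm white the excess in warm beige was smaller, 1.03 ± 0.38 (SE, adjusted p = 0.0357), and was lost without warm beige 1 (adjusted p = 0.0657) or warm beige 2 (adjusted p = 0.139). It was lost without warm white 1 or warm white 4 as well, at an adjusted p of 0.0608 each. Rn45s was the highest row of the table in the 8 libraries of those 2 groups, which quantile normalization sets to 1 common value.

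Within the batches read from the values, brown warming of Rn45s was 1.28 in batch 1 (adjusted p = 0.133) and 1.87 in batch 2, and beige warming was 2.74 and 2.41. Batch 1 holds a single warm beige library, which is assumed there to vary like the other groups. The precursor unit contains the sequences of the mature rRNAs, and the input was ribosome-bound RNA after depletion of rRNA, so reads from the precursor and reads from mature rRNA left after depletion cannot be told apart. The summed CPM of the other 54 members was 2063 ± 35.0 (SD) in cold and 2071 ± 77.0 in warm brown, 1819 ± 61.7 in cold and 2072 ± 258 in warm beige, and 2207 ± 111 in warm white, a far narrower range than that of Rn45s.

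**Figure D2:**
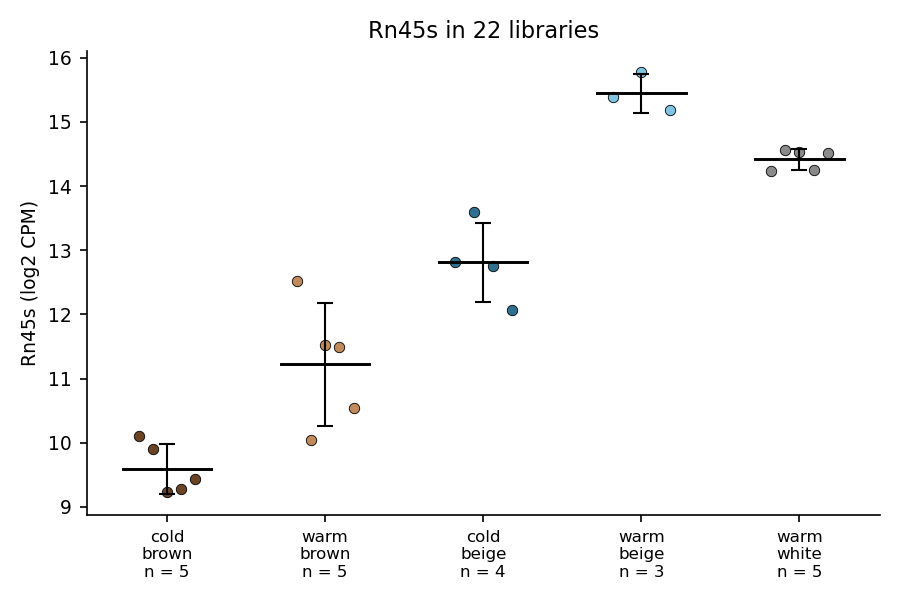
Log2 CPM of Rn45s in each library (points), by group, with the group mean and SD. The 3 warm beige libraries, at 15.18 to 15.78, lie above all others, and the 5 warm brown libraries spread from 10.04 to 12.52.

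The 5 subunits of RNA polymerase I did not rise with the Rn45s reads in beige fat. On beige warming 3 fell and Polr1b and Polr1c were not called, and in brown fat 3 fell and 2 were called higher. Of all rows, 36.9% were called lower in beige fat, and 30.1% lower and 41.2% higher in brown fat. The median change of the subunits was -0.31 in beige and -0.28 in brown fat. Polr1d, a subunit shared with RNA polymerase III, read 7.10, 7.16, 7.02, 6.90 and 7.08 in cold brown and 6.12, 6.22, 6.11, 6.10 and 6.03 in warm brown, and 6.77, 6.81, 6.70 and 6.53 in cold beige, 6.04, 5.99 and 5.57 in warm beige, and 5.89, 5.76, 5.87, 5.72 and 6.08 in warm white. Its warm libraries lay below all cold ones in both fats, with falls of 0.84 ± 0.10 (SE, adjusted p = 1.79e-07) and 0.94 ± 0.08 (SE, adjusted p = 1.7e-09). Polr1e, a subunit found in RNA polymerase I alone, read 3.29, 3.28, 3.45, 3.29 and 3.24 in cold brown and 2.88, 2.65, 2.64, 2.71 and 2.36 in warm brown, and 2.56, 2.87, 2.86 and 2.77 in cold beige, 1.81, 1.96 and 1.61 in warm beige, and 2.37, 2.57, 2.00, 2.58 and 2.42 in warm white. Its warm beige values were the lowest of the 5 groups, and it fell by 0.97 ± 0.16 (SE, adjusted p = 1.07e-05) in beige and 0.66 ± 0.13 (SE, adjusted p = 0.000116) in brown fat. Both subunits kept these calls under all 5 scalings and without any single library.

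Polr1a, the largest catalytic subunit (gene at chr6:71909053-71979435, GRCm38.p6), was less stable. It read 5.58, 5.53, 5.63, 5.61 and 5.64 in cold brown and 5.68, 6.00, 5.72, 5.85 and 5.84 in warm brown, and 5.24, 5.38, 5.66 and 5.78 in cold beige, 5.40, 4.99 and 5.22 in warm beige, and 5.57, 5.39, 5.49, 5.56 and 5.71 in warm white. Warm brown lay above cold brown throughout, whereas warm beige overlapped cold beige. It fell by 0.31 ± 0.11 (SE, adjusted p = 0.0187) in beige fat, a call lost under 4 of the 5 scalings and without cold beige 3, cold beige 4 or warm beige 2. In brown fat it rose by 0.22 ± 0.09 (SE, adjusted p = 0.0427), a call lost under quantile normalization and median-of-ratios scaling and without 8 of the 10 brown libraries, each in turn. The difference between the fats, -0.53 ± 0.15 (SE, adjusted p = 0.00535), was not lost with any single library left out.

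Polr1b, which forms the catalytic core with Polr1a, was at 0.03 in beige fat (adjusted p = 0.835) and rose by 0.21 ± 0.09 (SE, adjusted p = 0.0475) in brown fat, where quantile normalization turned it to -0.048. Polr1c, the assembly partner of Polr1d, fell by 0.28 ± 0.08 (SE, adjusted p = 0.00272) in brown fat, a call lost under the 3 scalings by library totals, and was at 0.14 in beige fat (adjusted p = 0.176). Polr1a, Polr1b and Polr1e were lower in warm beige than in warm white, by 0.34, 0.51 and 0.59 (adjusted p = 0.0168, 0.000726 and 0.00354). Without warm beige 2 the call of Polr1a was lost.

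**Figure D3:**
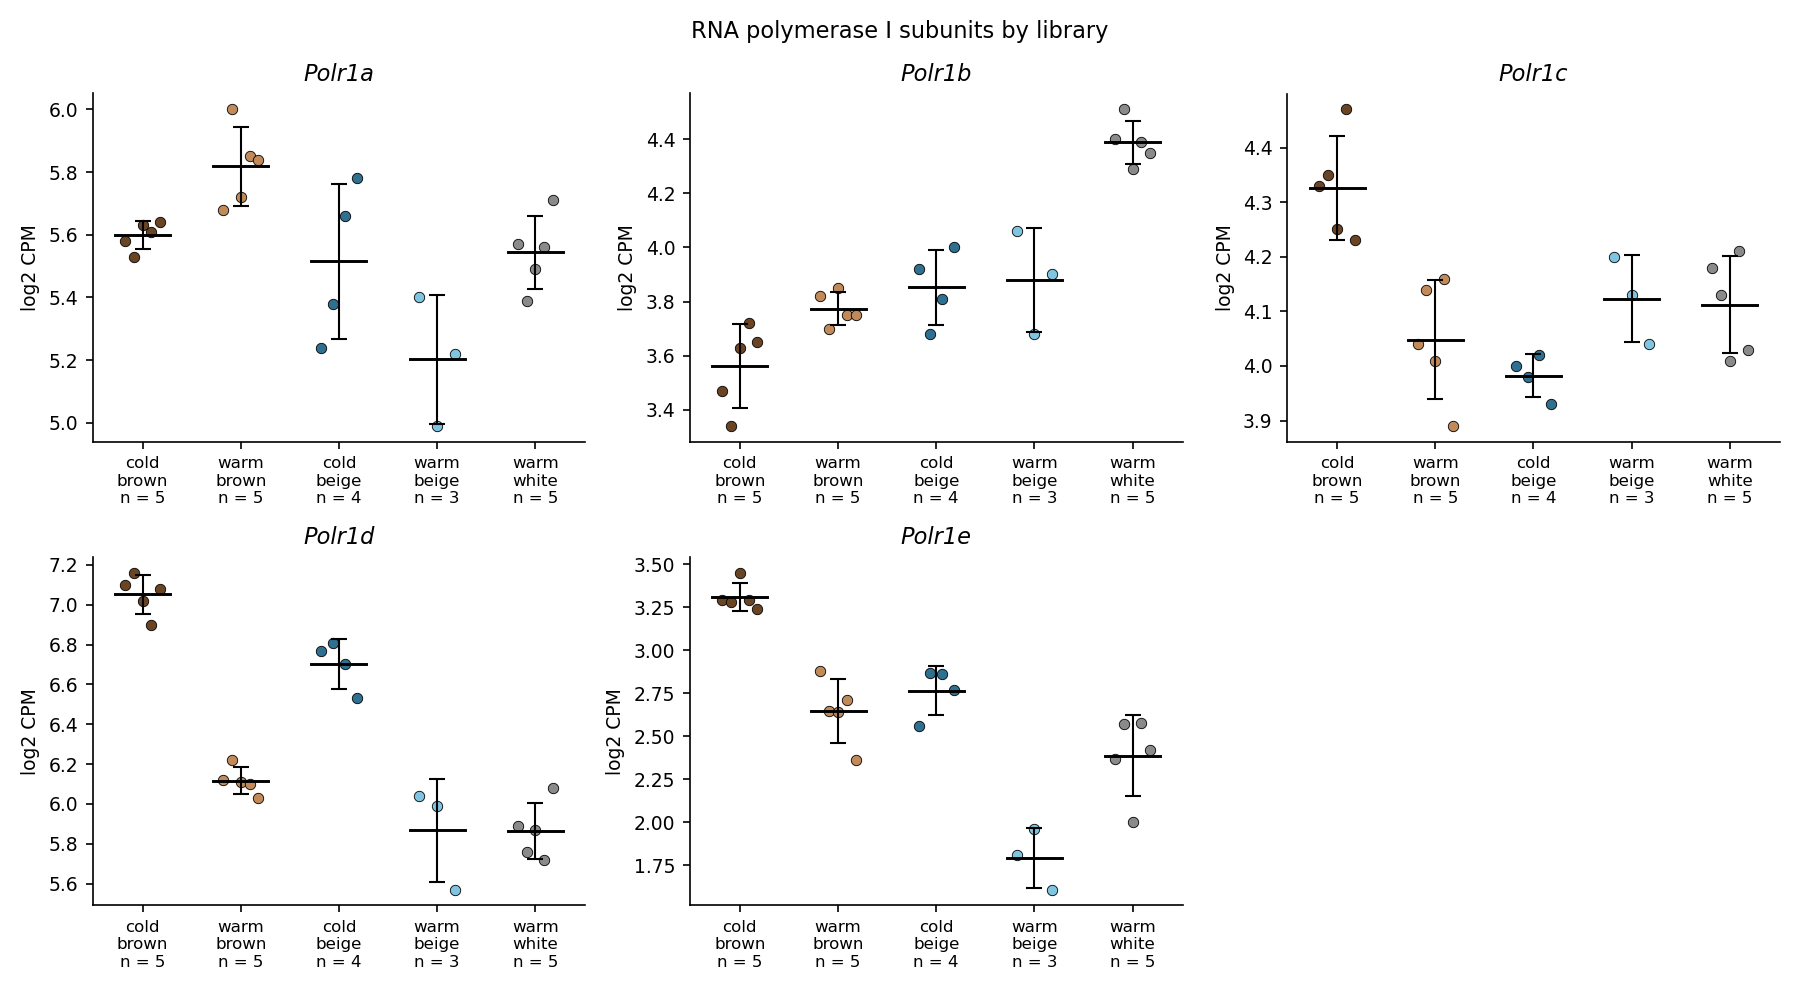
Log2 CPM of the 5 RNA polymerase I subunits in each of the 22 libraries, 1 panel per gene, with group means and SD. Polr1d and Polr1e are lower in the warm than in the cold libraries of both fats, and Polr1a, Polr1b and Polr1c show smaller shifts.

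The proteins of the small nucleolar RNA particles parted within a single complex. Of 7, 4 rose and 2 fell on beige warming and 5 rose and 1 fell on brown warming, with medians of 0.45 and 0.43, beside 36% of all rows higher and 36.9% lower in beige and 41.2% and 30.1% in brown fat. The H/ACA particle has 4 core proteins: Dkc1, the pseudouridine synthase, and its partners Gar1, Nhp2 and Nop10. On beige warming Dkc1 and Gar1 rose and Nhp2 and Nop10 fell. Their promoters are shown because these subunits of 1 particle moved apart, together with those of Imp4 and Pes1, which both hold CACGTG and moved in opposite directions on beige warming. Each runs 5′ to 3′ from 250 bases before to 50 bases after a RefSeq transcript start (GRCm38.p6), which for Gar1 lies a few bases inside the outer end of the gene. The letters are in lower case, with CACGTG and either CCGGAAG or its reverse complement CTTCCGG in capitals. CACGTG is the E-box recognised by Myc and its relatives, and CCGGAAG is a core recognised by ETS family factors. The windows are Dkc1 at chrX:75095604-75095903, plus strand, Gar1 at chr3:129831347-129831646, minus strand, Nhp2 at chr11:51619523-51619822, plus strand, Nop10 at chr2:112261676-112261975, plus strand, Imp4 at chr1:34439579-34439878, plus strand and Pes1 at chr11:3963725-3964024, plus strand.
Dkc1: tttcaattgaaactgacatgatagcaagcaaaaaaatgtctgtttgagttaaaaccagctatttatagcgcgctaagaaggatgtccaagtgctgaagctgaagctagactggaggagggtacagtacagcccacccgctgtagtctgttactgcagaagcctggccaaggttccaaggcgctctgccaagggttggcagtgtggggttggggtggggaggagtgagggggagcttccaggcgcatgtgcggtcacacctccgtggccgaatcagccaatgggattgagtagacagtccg
Gar1: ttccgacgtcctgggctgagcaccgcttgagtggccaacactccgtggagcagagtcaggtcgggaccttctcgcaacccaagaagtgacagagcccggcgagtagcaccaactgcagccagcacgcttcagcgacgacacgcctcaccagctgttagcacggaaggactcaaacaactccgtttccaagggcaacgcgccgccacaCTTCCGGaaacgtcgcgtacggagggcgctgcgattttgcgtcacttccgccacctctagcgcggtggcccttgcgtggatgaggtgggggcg
Nhp2: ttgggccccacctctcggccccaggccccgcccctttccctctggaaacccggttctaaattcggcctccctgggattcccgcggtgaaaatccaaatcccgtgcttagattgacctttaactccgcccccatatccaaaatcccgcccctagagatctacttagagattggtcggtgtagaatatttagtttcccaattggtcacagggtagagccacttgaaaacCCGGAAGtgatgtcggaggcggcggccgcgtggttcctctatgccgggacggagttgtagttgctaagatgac
Nop10: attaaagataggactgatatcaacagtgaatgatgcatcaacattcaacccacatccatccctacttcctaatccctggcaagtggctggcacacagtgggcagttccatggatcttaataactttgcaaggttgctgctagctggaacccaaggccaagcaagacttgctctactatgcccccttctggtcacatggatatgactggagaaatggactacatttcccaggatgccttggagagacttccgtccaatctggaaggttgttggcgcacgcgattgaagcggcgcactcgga
Imp4: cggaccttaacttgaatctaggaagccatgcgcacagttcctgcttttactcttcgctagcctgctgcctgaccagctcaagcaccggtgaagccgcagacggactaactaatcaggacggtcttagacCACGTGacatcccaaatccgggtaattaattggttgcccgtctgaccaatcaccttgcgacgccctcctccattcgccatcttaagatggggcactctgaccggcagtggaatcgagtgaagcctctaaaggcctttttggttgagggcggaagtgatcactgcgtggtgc
Pes1: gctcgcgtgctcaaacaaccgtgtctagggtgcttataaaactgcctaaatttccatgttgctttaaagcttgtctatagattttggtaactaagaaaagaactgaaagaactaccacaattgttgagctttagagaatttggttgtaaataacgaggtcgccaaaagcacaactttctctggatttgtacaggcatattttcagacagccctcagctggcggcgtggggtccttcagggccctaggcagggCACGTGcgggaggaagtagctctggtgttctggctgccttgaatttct
The capitals begin at base 208 of the Gar1 window, base 228 of Nhp2, base 130 of Imp4 and base 253 of Pes1, and the windows of Dkc1 and Nop10 hold neither motif.

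Dkc1, mutated in the human disease dyskeratosis congenita, read 5.20, 5.34, 5.34, 5.32 and 5.32 in cold brown and 6.21, 6.14, 6.16, 6.17 and 6.07 in warm brown. In inguinal fat it read 5.92, 5.69, 5.44 and 5.48 in cold beige, 6.22, 6.05 and 5.97 in warm beige, and 6.13, 6.06, 6.33, 6.08 and 6.42 in warm white. Every warm library lay above every cold one within each fat, and Dkc1 rose by 0.45 ± 0.10 (SE, adjusted p = 0.000517) in beige and 0.85 ± 0.09 (SE, adjusted p = 8.74e-09) in brown fat. The rise was smaller in beige fat, with a difference of -0.40 ± 0.13 (SE, adjusted p = 0.0176), a call lost under quantile normalization and median-of-ratios scaling and without warm beige 3. Gar1, which binds Dkc1 directly, read 1.94, 1.37, 1.88, 1.76 and 1.78 in cold brown and 2.73, 2.55, 3.14, 2.42 and 2.49 in warm brown, and 2.94, 3.14, 2.36 and 2.12 in cold beige, 3.93, 4.08 and 4.29 in warm beige, and 3.86, 4.03, 3.76, 3.82 and 4.15 in warm white. Gar1 was higher in every warm library than in any cold library of the same fat, by 1.46 ± 0.22 (SE, adjusted p = 2.69e-06) in beige and 0.92 ± 0.18 (SE, adjusted p = 8.72e-05) in brown fat. Quantile normalization reduced the brown value to 0.39 and ended that call.

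Nhp2 read 4.92, 4.95, 4.87, 4.94 and 5.16 in cold brown and 4.86, 5.18, 4.78, 5.02 and 5.05 in warm brown. Its inguinal values were 4.88, 5.09, 5.02 and 4.87 in cold beige, 4.28, 3.58 and 3.25 in warm beige, and 4.09, 4.12, 3.45, 3.41 and 3.63 in warm white. Both brown groups and cold beige overlapped near 5 log2 CPM, while all warm beige and warm white libraries were lower. Nhp2 fell by 1.26 ± 0.19 (SE, adjusted p = 3.46e-06) in beige fat and was at 0.01 in brown fat (adjusted p = 0.96), and the difference between the fats was -1.27 ± 0.25 (SE, adjusted p = 0.000197).

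Nop10, the smallest core protein, read 5.72, 5.76, 5.74, 5.38 and 6.00 in cold brown and 6.05, 6.23, 5.94, 6.32 and 6.21 in warm brown. Inguinal fat gave 4.83, 5.35, 5.14 and 5.23 in cold beige, 4.23, 3.18 and 3.90 in warm beige, and 4.23, 4.32, 4.23, 4.18 and 4.21 in warm white. The brown libraries were all above the inguinal ones, and warming parted cold beige from warm beige without overlap. Nop10 fell by 1.37 ± 0.17 (SE, adjusted p = 3.02e-07) in beige fat and rose by 0.43 ± 0.14 (SE, adjusted p = 0.0107) in brown fat, where median-of-ratios scaling gave 0.32 and ended the call. The difference of -1.80 ± 0.23 (SE, adjusted p = 9.37e-07) was kept under all 5 scalings and without any single library. Against warm white, Nhp2 in warm beige was at -0.04 (adjusted p = 0.894), and Nop10 was lower by 0.46 ± 0.17 (SE, adjusted p = 0.0304), which without warm beige 2 became -0.17 and was not called.

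**Figure D4:**
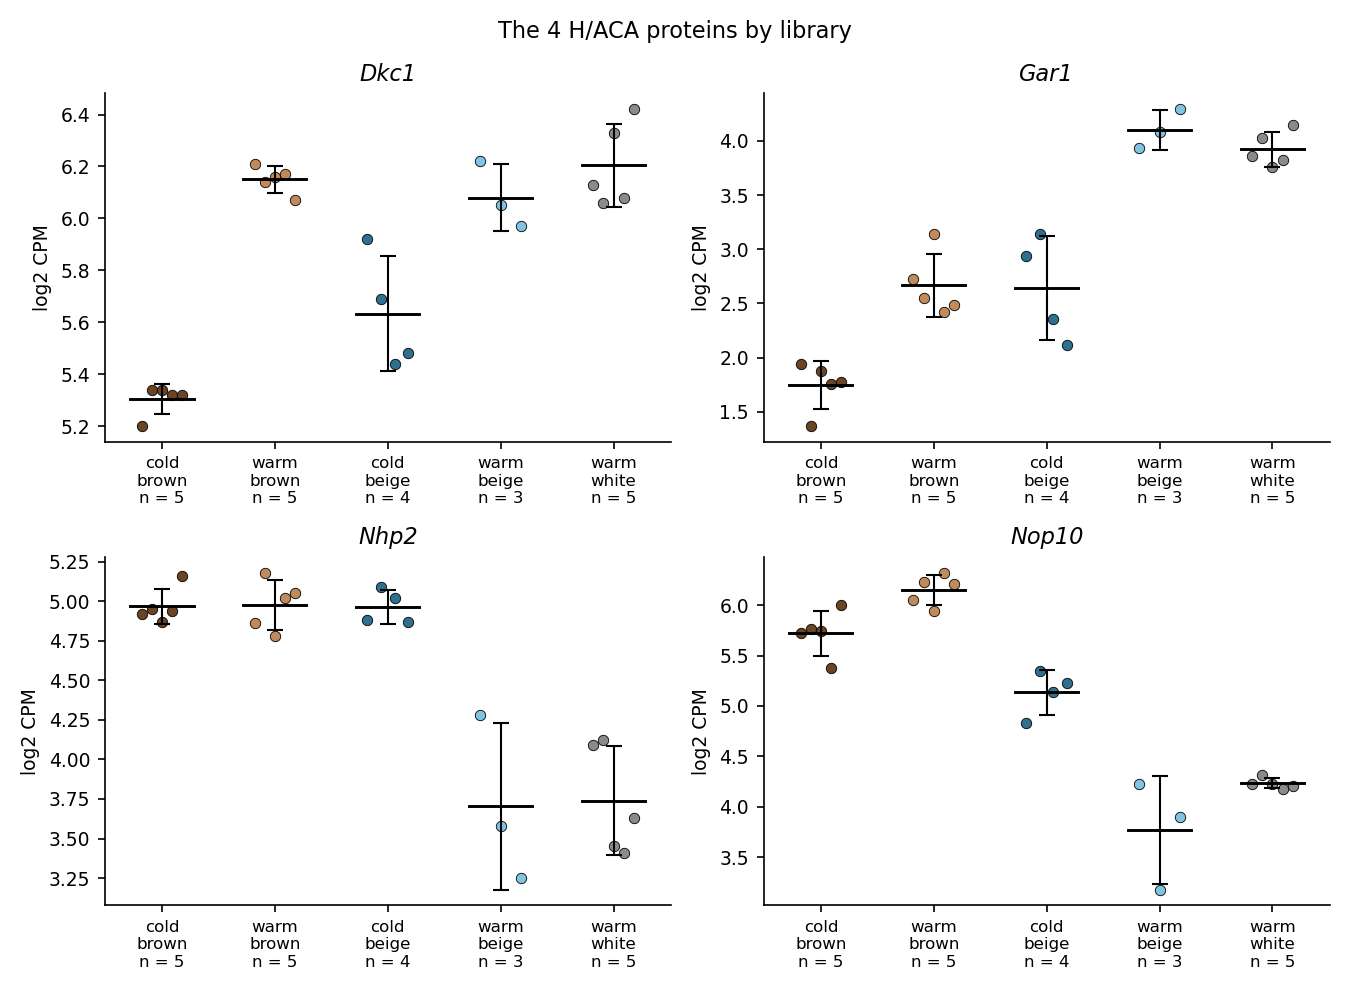
Log2 CPM of the H/ACA proteins Dkc1, Gar1, Nhp2 and Nop10 in each library, by group, with group means and SD. Gar1 and Dkc1 are higher in warm than in cold beige, and Nhp2 and Nop10 lower, while in brown fat Nhp2 stays near 5 log2 CPM.

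In the box C/D particle the scaffold pair Nop58 and Nop56 rose in both fats. Nop58 rose by 0.95 ± 0.17 (SE, adjusted p = 2.96e-05) in beige and 0.41 ± 0.14 (SE, adjusted p = 0.0117) in brown fat, the latter lost under quantile normalization and median-of-ratios scaling. Nop56 rose by 0.49 ± 0.15 (SE, adjusted p = 0.00486) in beige fat, a call lost with library weights and without warm beige 1, and by 0.68 ± 0.12 (SE, adjusted p = 3.84e-05) in brown fat. Fbl, the methyltransferase of the particle, read 3.04, 2.97, 2.83, 3.05 and 2.88 in cold brown and 2.74, 2.60, 2.92, 2.65 and 2.40 in warm brown, and 2.97, 2.99, 2.99 and 2.73 in cold beige, 3.39, 3.27 and 3.05 in warm beige, and 3.22, 2.68, 2.71, 2.99 and 3.19 in warm white. In beige fat the warm libraries of Fbl lay just above the cold ones, 3.05 against 2.99 at the closest, and in brown fat the groups overlapped. Fbl was at 0.32 in beige fat (adjusted p = 0.074) and fell by 0.29 ± 0.13 (SE, adjusted p = 0.0488) in brown fat, where its partners rose, a call that 13 of the 22 omissions of a single library ended. The difference between the fats, 0.61 ± 0.20 (SE, adjusted p = 0.0174), was lost without warm beige 1.

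Ncl and Npm1, the abundant nucleolar proteins nucleolin and nucleophosmin, rose in both fats and more in beige. Ncl, which binds the precursor and the ribosomal DNA, read 6.75, 6.73, 6.84, 6.87 and 6.36 in cold brown and 7.35, 7.08, 7.45, 7.24 and 6.88 in warm brown, and 7.35, 7.14, 7.03 and 6.67 in cold beige, 8.29, 8.19 and 8.00 in warm beige, and 8.05, 8.33, 8.06, 8.05 and 8.14 in warm white. The warm libraries lay above all cold ones in both fats, with 6.88 against 6.87 at the closest in brown fat. Ncl rose by 1.11 ± 0.14 (SE, adjusted p = 4.09e-07) in beige and 0.49 ± 0.12 (SE, adjusted p = 0.000919) in brown fat, with a difference of 0.62 ± 0.19 (SE, adjusted p = 0.00889).

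Npm1, a chaperone of histones and ribosomal particles, read 5.37, 5.41, 5.23, 5.19 and 5.28 in cold brown and 5.69, 5.65, 5.66, 5.58 and 5.47 in warm brown. Inguinal fat gave 5.11, 5.03, 4.85 and 4.77 in cold beige, 6.58, 6.28 and 5.71 in warm beige, and 5.76, 5.75, 5.61, 5.57 and 5.71 in warm white. Cold beige held the lowest values of the 5 groups and warm beige 1 and warm beige 2 the highest. Npm1 rose by 1.25 ± 0.13 (SE, adjusted p = 1.77e-08) in beige and 0.31 ± 0.11 (SE, adjusted p = 0.0138) in brown fat, the latter lost under median-of-ratios scaling, with a difference of 0.94 ± 0.17 (SE, adjusted p = 0.000108). It was higher in warm beige than in warm white by 0.51 ± 0.13 (SE, adjusted p = 0.00275), but in batch 1, with its single warm beige library, the value was -0.03.

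Among the other multifunctional proteins, Rrp8, a methyltransferase that also acts in silencing ribosomal DNA, fell by 0.65 ± 0.11 (SE, adjusted p = 2.07e-05) in beige fat and was at -0.13 in brown fat (adjusted p = 0.203). Rrp8 was lower in warm beige than in warm brown by 1.15 ± 0.11 (SE, adjusted p = 2.35e-09).

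The 23 small subunit rows had 8 called higher and 4 lower on beige warming, and 9 higher and 3 lower on brown warming. These shares of higher calls are near the 36% and 41.2% of all rows, and 36.9% and 30.1% of all rows were lower. The medians of the small subunit rows were -0.02 and 0.15. Imp3 and Imp4, partner proteins that bind the small nucleolar RNA at the heart of the small subunit processome, went opposite ways. Imp4 (gene at chr1:34439829-34445747) read 6.33, 6.34, 6.34, 6.34 and 6.36 in cold brown and 5.36, 5.49, 5.47, 5.42 and 5.26 in warm brown, and 5.46, 5.38, 5.41 and 5.59 in cold beige, 4.93, 4.94 and 4.59 in warm beige, and 5.06, 5.08, 4.98, 5.04 and 5.06 in warm white. The cold brown libraries lay close together and above all others. Imp4 fell by 0.64 ± 0.08 (SE, adjusted p = 3.19e-07) in beige and by 0.94 ± 0.07 (SE, adjusted p = 3.56e-11) in brown fat, the largest fall of a member in brown fat. Imp3 read 5.09, 5.13, 4.91, 4.91 and 4.97 in cold brown and 5.44, 5.35, 5.52, 5.22 and 5.38 in warm brown, and 5.50, 5.51, 5.16 and 4.99 in cold beige, 6.74, 6.38 and 5.98 in warm beige, and 6.15, 6.52, 6.17, 6.09 and 6.29 in warm white. Its warm beige libraries were above all cold beige ones, and Imp3 rose by 1.08 ± 0.14 (SE, adjusted p = 7.11e-07) in beige and 0.38 ± 0.12 (SE, adjusted p = 0.0073) in brown fat.

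Utp14a and Utp23, processome proteins needed for early cleavage of the precursor, rose in beige fat by 0.73 ± 0.13 (SE, adjusted p = 2.98e-05) and 0.94 ± 0.20 (SE, adjusted p = 0.000194). In brown fat they were at -0.11 (adjusted p = 0.351) and 0.09 (adjusted p = 0.64). The differences between the fats were 0.85 ± 0.17 (SE, adjusted p = 0.000269) and 0.85 ± 0.26 (SE, adjusted p = 0.00853). Utp3 had the highest change of the small subunit rows in beige fat, 1.11 ± 0.12 (SE, adjusted p = 3.75e-08).

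Heatr1, a large scaffold of the processome, has 2 rows that did not read alike. The row uc007plk.1 had 5.17, 5.30, 5.27, 5.34 and 5.17 in cold brown and 4.77, 4.89, 4.83, 4.73 and 4.60 in warm brown, and 4.96, 5.10, 5.22 and 5.10 in cold beige, 4.74, 3.80 and 4.17 in warm beige, and 4.51, 4.23, 4.25, 4.40 and 4.47 in warm white. The row uc007pll.1 had 5.84, 5.95, 6.04, 6.05 and 5.85 in cold brown and 5.79, 6.12, 5.75, 5.96 and 5.82 in warm brown, and 4.87, 5.03, 5.41 and 5.46 in cold beige, 5.00, 5.00 and 5.08 in warm beige, and 5.20, 5.10, 5.20, 5.15 and 5.13 in warm white. Its temperature groups overlapped, whereas uc007plk.1 fell by 0.86 ± 0.14 (SE, adjusted p = 1.15e-05) in beige and 0.49 ± 0.12 (SE, adjusted p = 0.000825) in brown fat. The row uc007pll.1 was at -0.17 (adjusted p = 0.197) and -0.06 (adjusted p = 0.596), but was lower in cold beige than in cold brown by 0.75 ± 0.10 (SE, adjusted p = 1.39e-06) and in warm beige than in warm brown by 0.86 ± 0.11 (SE, adjusted p = 2.91e-07). How reads were shared between the rows is not stated, so the values of either row are uncertain.

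Of the 13 large subunit rows, 4 were called higher and 4 lower on beige warming, near the 36% and 36.9% of all rows. On brown warming 4 were higher and 5 lower, beside 41.2% and 30.1% of all rows. The medians were 0.04 and -0.20. Rrs1, which helps to place the small rRNA of the large subunit, read 4.34, 4.30, 4.49, 4.45 and 4.40 in cold brown and 5.02, 4.61, 5.10, 4.70 and 4.63 in warm brown. In inguinal fat it read 5.16, 4.98, 4.80 and 4.84 in cold beige, 6.39, 6.11 and 6.28 in warm beige, and 6.48, 6.53, 6.80, 6.55 and 7.06 in warm white. All 8 libraries from inguinal fat at 30 °C lay above 6 log2 CPM and no other library did. Rrs1 rose by 1.31 ± 0.14 (SE, adjusted p = 1.26e-08) in beige and 0.42 ± 0.11 (SE, adjusted p = 0.00231) in brown fat, with a difference of 0.90 ± 0.18 (SE, adjusted p = 0.000229). It was lower in warm beige than in warm white by 0.42 ± 0.13 (SE, adjusted p = 0.0127), a call lost without warm beige 2.

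Rrp1b, a nucleolar protein of large subunit assembly, read 2.69, 2.67, 2.68, 3.04 and 2.77 in cold brown and 3.56, 3.66, 3.75, 3.48 and 3.51 in warm brown, and 3.20, 2.86, 3.19 and 2.97 in cold beige, 4.26, 4.13 and 3.98 in warm beige, and 4.13, 4.42, 4.16, 4.08 and 4.39 in warm white. It was higher in the warm than in the cold libraries of both fats, by 1.07 ± 0.13 (SE, adjusted p = 1.52e-07) and 0.82 ± 0.11 (SE, adjusted p = 4.89e-07). Pes1, a core protein of the complex it forms with Bop1 and Wdr12, rose by 0.33 ± 0.12 (SE, adjusted p = 0.0136) in beige fat, a call lost without cold beige 2 or warm beige 2. In batch 1 alone the beige value of Pes1 was -0.04. In brown fat Pes1 was at -0.20 (adjusted p = 0.0669), and its partner Wdr12, named after its values were seen, fell in both fats, by 0.77 and 0.55 (adjusted p = 2.35e-06 and 1.85e-05).

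Nol12, a nuclease that acts on the spacers of the precursor, fell by 0.98 ± 0.20 (SE, adjusted p = 0.000161) in beige fat and by 0.39 ± 0.17 (SE, adjusted p = 0.0412) in brown fat, the latter lost under 3 of the 5 scalings and without 8 of the 10 brown libraries, each in turn. Ebna1bp2, an early large subunit factor, fell by 0.70 ± 0.11 (SE, adjusted p = 3.18e-06) in brown fat and was at -0.16 (adjusted p = 0.249) in beige fat. The difference of 0.54 ± 0.16 (SE, adjusted p = 0.00979) was lost without warm beige 1.

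Nol4l, which entered by its name and has no established place in ribosome assembly, had the largest fall of any member. It read 5.11, 5.20, 4.57, 5.06 and 5.20 in cold brown and 4.99, 4.88, 4.61, 4.60 and 4.58 in warm brown, and 4.72, 4.76, 4.86 and 5.14 in cold beige, 2.69, 1.83 and 2.06 in warm beige, and 0.20, 0.29, 0.82, 1.62 and 1.55 in warm white. Both brown groups and cold beige overlapped near 5 log2 CPM, warm beige was lower, and warm white was lower than warm beige in all 5 libraries. Nol4l fell by 2.68 ± 0.28 (SE, adjusted p = 1.53e-08) on beige warming and was at -0.30 (adjusted p = 0.259) on brown warming, a difference of -2.38 ± 0.36 (SE, adjusted p = 1.28e-05). It was higher in warm beige than in warm white by 1.30 ± 0.27 (SE, adjusted p = 0.000555). Nol7, the other member given no role here, was not called in any comparison, with values from -0.26 (cold beige minus cold brown) to 0.18 (the difference between the fats).

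The test of the difference between beige and brown warming called 16 members higher in beige fat and 7 lower, beside 14.8% and 32.4% of all rows. The median difference was 0.04 over the members and -0.17 over all rows, a gap of 0.21 that quantile normalization reduced to 0.07. Quantile normalization raised the median of all rows by 0.21 and gave 20 higher and 7 lower, beside 26.7% and 27.1% of all rows. Median-of-ratios scaling, with a shift of 0.15, gave 18 and 5, beside 21.4% and 25.2%. Small subunit rows, 23 of the 55 members, gave 7 of the higher calls and 1 of the lower. Large subunit rows, 13 of the 55, gave 4 of the higher. All 3 called H/ACA proteins, Dkc1, Nhp2 and Nop10, were on the lower side. Of the 16 higher calls 11 were kept without any single library.

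**Figure D5:**
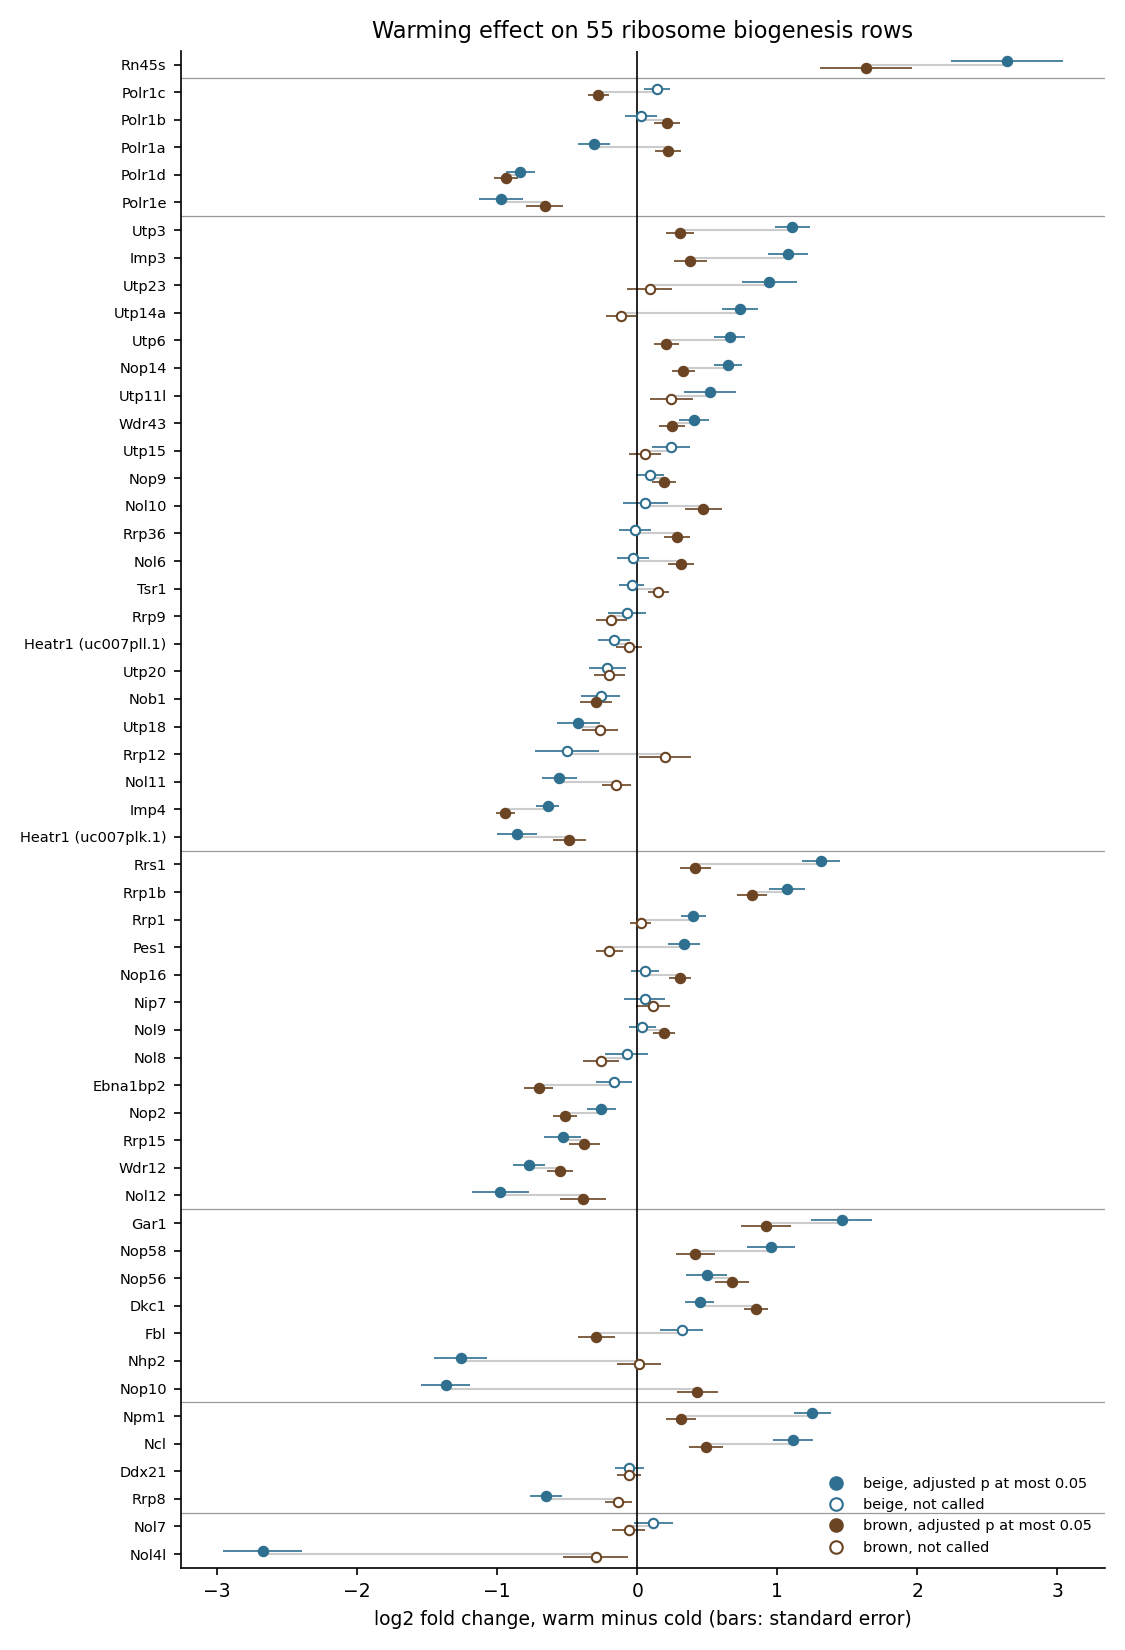
Log2 fold change on warming with its SE for each member in beige (blue) and brown (brown) fat, with filled points for an adjusted p at or below 0.05. Rn45s and Gar1 lie to the right in both fats, and Nol4l, Nop10 and Nhp2 lie to the left in beige fat alone.

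Between the cold depots, more members were lower in inguinal fat. Cold beige minus cold brown called 11 members higher and 21 lower, beside 34.7% and 27.2% of all rows, with a median of -0.17 over the members and 0.05 over all rows. Of the 55, 6 had every cold beige library above every cold brown one and 22 had every one below, beside 29.3% and 24.9% of all rows. Among the members lower in cold beige were Imp4, by 0.88 ± 0.07 (SE, adjusted p = 1.01e-09), and Utp11l, a processome protein, by 0.80 ± 0.16 (SE, adjusted p = 0.000219). Tsr1, a late factor of the small subunit, was lower by 0.61 ± 0.08 (SE, adjusted p = 1.02e-06). Gar1 was higher by 0.89 ± 0.19 (SE, adjusted p = 0.000326), which quantile normalization reduced to 0.29 and left uncalled, and Rrs1 was higher by 0.55 ± 0.12 (SE, adjusted p = 0.000432). Quantile normalization gave 6 higher and 25 lower, and median-of-ratios scaling 6 and 28 as it moved the median of all rows by -0.10.

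Between the warm depots the lower calls outnumbered the higher among the members, as they did among all rows. Warm beige minus warm brown called 15 members higher and 23 lower, beside 35.3% and 40.1% of all rows, with medians of -0.06 over the members and -0.05 over all rows. The groups did not overlap for 12 members higher and 17 lower, beside 32.5% and 37.5% of all rows. Rrs1 was higher by 1.45 ± 0.13 (SE, adjusted p = 1.24e-09) and Gar1 by 1.43 ± 0.21 (SE, adjusted p = 1.68e-06), and Nop10 was lower by 2.38 ± 0.17 (SE, adjusted p = 1.88e-11). Small subunit rows, 23 of the 55 members, gave 11 of the 23 lower calls, led by Nol11 at -0.94 ± 0.12 (SE, adjusted p = 3.35e-07). Leaving Rn45s and 20 other abundant rows out of the totals raised the median of all rows by 0.15. It gave 20 higher and 17 lower, beside 41.3% and 34.5% of all rows. These comparisons share their libraries with the warming comparisons, so their values are not independent of those above.

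Warm beige and warm white, the same depot at the same temperature with and without a history of cold, gave the fewest calls. The groups may also differ in mouse line, which was not given by library. All 12 endothelial markers were called higher in warm beige, with a median log2 change of 3.37. The part of line or cell mix in the calls was not tested. In this comparison 4 members were called higher in warm beige (Rn45s, Nol4l, Npm1 and Utp14a) and 13 lower, beside 17% and 22.4% of all rows. The median was -0.09 over the members and -0.04 over all rows. The groups did not overlap for 3 members higher and 9 lower, beside 12.4% and 16.7% of all rows. Nol6, a processome protein, read 6.44, 6.17 and 5.90 in warm beige and 7.06, 6.84, 6.55, 7.09 and 6.82 in warm white, and every warm beige library was below every warm white one. It was lower in warm beige by 0.70 ± 0.11 (SE, adjusted p = 2.03e-05). Rrp15, a large subunit factor, was lower by 0.69 ± 0.13 (SE, adjusted p = 0.0002). Without warm beige 2 or warm beige 3 the count of lower calls fell from 13 to 7. It was 7 as well, beside 17.7% of all rows, when all libraries had 1 common total. Under the alternatives other than single batches, 2 of the 4 higher and 3 of the 13 lower calls remained: Nol4l and Npm1, and Nol6, Polr1b and Rrp15.

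Other genes of the pathway, taken from lists by role, changed in both directions as well. The counts below stand beside 36% of all rows called higher and 36.9% lower in beige fat, and 41.2% and 30.1% in brown fat, with medians of all rows of 0.03 and 0.13. Of 13 measured RNA polymerase I factors, 7 rose and 2 fell on beige warming and 4 rose and 2 fell on brown warming, with medians of 0.41 and 0.04. Rrn3, the initiation factor that joins the polymerase to the promoter, fell by 0.87 ± 0.10 (SE, adjusted p = 5.41e-08) and 0.27 ± 0.08 (SE, adjusted p = 0.00602). Taf1a, a subunit of the promoter selectivity factor, rose by 1.31 ± 0.19 (SE, adjusted p = 2.16e-06) and 1.62 ± 0.16 (SE, adjusted p = 5.25e-09). Ubtf, which binds the ribosomal DNA, fell by 0.70 ± 0.07 (SE, adjusted p = 1.63e-08) in brown fat, and its difference between the fats was 1.11 ± 0.11 (SE, adjusted p = 5.68e-08).

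Among 29 other small subunit factors, 14 rose and 9 fell in beige fat and 8 rose and 11 fell in brown fat, with medians of 0.04 and -0.11. Rcl1, a processome nuclease, fell in both, by 1.78 ± 0.12 (SE, adjusted p = 1.3e-11) and 1.42 ± 0.10 (SE, adjusted p = 3.14e-11). Among 44 other large subunit factors, 18 rose and 10 fell in beige and 14 rose and 10 fell in brown fat (medians 0.20 and 0.10). Senp3, a SUMO protease of the nucleolus, fell by 1.26 ± 0.08 (SE, adjusted p = 5.29e-12) and 0.99 ± 0.07 (SE, adjusted p = 1.48e-11). Of 12 snoRNP assembly factors, 7 rose and 2 fell in beige and 5 rose and 4 fell in brown fat (medians 0.39 and 0.16). Rpap3, a co-chaperone of snoRNP assembly, rose by 1.71 ± 0.12 (SE, adjusted p = 1.23e-11) and 1.33 ± 0.10 (SE, adjusted p = 4.17e-11), and Ruvbl2, an ATPase of the same assembly machinery, fell by 1.65 ± 0.12 (SE, adjusted p = 3.9e-11) and 0.57 ± 0.10 (SE, adjusted p = 2.45e-05).

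The 14 measured exosome and decay factors, which trim the precursor, had 8 called higher and 5 lower in beige fat and 7 and 3 in brown fat, with medians of 0.35 and 0.25. Exosc4, an exosome core subunit, fell by 1.17 ± 0.09 (SE, adjusted p = 4.05e-11) and 0.71 ± 0.07 (SE, adjusted p = 8.61e-09). Of 19 regulators of ribosome synthesis, 10 rose and 7 fell in beige and 9 rose and 6 fell in brown fat, with medians of 0.48 and -0.03. Mtor, the growth kinase, fell by 1.93 ± 0.10 (SE, adjusted p = 8.88e-14) and 1.08 ± 0.08 (SE, adjusted p = 8.37e-11). Mycl, a Myc family member, rose by 4.89 ± 0.43 (SE, adjusted p = 7.72e-10) and 4.20 ± 0.35 (SE, adjusted p = 4.97e-10), and Myc itself rose by 3.58 ± 0.28 (SE, adjusted p = 1.29e-10) in brown fat with a difference between the fats of -2.05 ± 0.44 (SE, adjusted p = 0.000494). Of 21 RNA polymerase III rows, 5 rose and 9 fell in beige and 6 rose and 8 fell in brown fat (medians -0.11 and -0.04).

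Short motifs in the promoters of the members are given as a description, with no test. RefSeq promoters of GRCm38.p6 were found for 45 of the 54 symbols, 52 windows in all, and none had overlapping matches of the motifs searched. On either strand, CACGTG was in the promoter of 8 of the 45 members (17.8%), in 12.0% of the 8620 genes of the table with a promoter and in 7.2% of all 32851 promoters. CCGGAAG was in 16 members (35.6%), 20.3% of table genes and 8.9% of all promoters. CTCGCGAG, a palindrome common in housekeeping promoters, was in 2 members (4.4%), 2.1% and 0.9%. Shares of members and table genes count a gene with the motif in any window, whereas shares of all promoters count single windows. By single window the members stood at 15.4% for CACGTG, 32.7% for CCGGAAG and 5.8% for CTCGCGAG. By call on beige warming, CCGGAAG was in 2 of 13 members called higher, 7 of 15 called lower and 7 of 17 not called. On brown warming it was in 4 of 18, 7 of 11 and 5 of 16. The members other than Rn45s, which was not placed, lie on 18 chromosomes, with at most 7 on any of them.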

How the data were processed

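Expression was read from 1 deposited table of 11603 rows and 22 libraries. Its values, which run from -7.21 to 15.78, are log2 CPM as deposited by the authors, a unit read from the table and not from a stated method. The tools were edgeR, featureCounts, Picard and HISAT2 and the build mm10, per the submitters' processing notes. Versions, settings and the use of strand are not given in the sources used here. The antilogs of a library added up to 0.859 to 1.10 of the total that CPM implies. Values were rounded, so whole reads could not be recovered, the depth of each library is unknown and no counting interval is given. A batch effect appears to have been removed before deposit: rows at the floor parted the libraries into 10 and 12, and the labels name no batch.

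Here a linear model with 1 mean per group was fitted to the deposited values in all 5 groups with limma 3.58.1 (variance trend, R 4.3.3, 17 residual degrees of freedom). It was tested on simulated data first. P-values were Benjamini-Hochberg adjusted over the 11603 rows, with a threshold of 0.05. A filter of 1 CPM in 3 libraries kept all rows and all 55 members. Every column belonged to a labelled sample (0 without). The adjusted p-values in the text come from this fit. Alternatives were added counts of 1 or 5 CPM, a filter at 5 CPM, 5 scalings, library weights, no variance trend, fits to the compared groups only, replicate blocks, a batch term, each batch alone and each library left out.

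Named members are 10 preset genes where present, the most abundant member of each role, the 4 largest called changes in each direction of each comparison, and members at the end of a range. Polr1c, Nop56, Nop58 and Wdr12 (to complete their complexes), Nop14 and Utp6 were named after their values were seen. The members, lists and roles were chosen with earlier results of these data known. Promoter sequences are from RefSeq (GRCm38.p6), where 53 members matched by symbol and 1 by synonym.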

Additional observations from a re-analysis of the deposited data

Results flagged for a closer look

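In 10 groups of 4 or 5 libraries, 1 library stood far from the others of its group, as the gap to its nearest neighbour divided by the range of the group. Chance flags about 1 in 20 groups, and 128 were tested. In cold brown, Dkc1 was low in library 1 (0.857), Nol4l was low (0.778) and Polr1e high (0.762) in library 3, Rrp1b was high in library 4 (0.73), and Ncl was low (0.725) and Nhp2 high (0.724) in library 5. In warm brown, Nol12 was low in library 3 (0.767) and Utp23 low in library 5 (0.717). Fbl was low in cold beige 4 (0.923), and Rrp1 was high in warm white 2 (0.739).

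The test of beige against brown warming passed for 23 members, 16 higher and 7 lower, beside 14.8% and 32.4% of all rows. The change was higher in beige fat for Npm1 (0.94), Rrs1 (0.90), Utp14a (0.85), Utp23 (0.85), Utp3 (0.80), Imp3 (0.70), Ncl (0.62), Fbl (0.61), Nop58 (0.54), Ebna1bp2 (0.54), Pes1 (0.53), Utp6 (0.45), Polr1c (0.42), Rrp1 (0.38), Nop14 (0.32) and Imp4 (0.30). It was lower in beige fat for Nol4l (-2.38), Nop10 (-1.80), Nhp2 (-1.27), Polr1a (-0.53), Rrp8 (-0.52), Nol11 (-0.41) and Dkc1 (-0.40).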

How the results depend on the processing

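Counts of called members are given as higher and lower. In batch 1 alone (5 residual degrees of freedom, 1 warm beige library) limma called 9 higher on beige warming, 4 and 4 on brown warming, 0 and 4 for the difference between the fats, 3 and 12 in cold beige minus cold brown, 6 higher in warm beige minus warm brown, and 0 and 3 in warm beige minus warm white. At an unadjusted p under 0.05 the 2 counts of 0 were 3 and 1. In batch 2 alone they were 4 lower (difference), 6 higher (cold beige minus cold brown), and 8 and 2 (warm beige minus warm white). No member called over all libraries was called in the opposite direction in either batch, though each batch is a part of those libraries. Quantile normalization gave 12 higher in brown fat and 6 higher between cold depots, and median-of-ratios scaling gave 11 and 19 in brown fat and 6 higher between cold depots. A common total, or totals without Rn45s, gave 7 lower in brown fat and 7 lower against warm white. Totals without Rn45s and 20 other rows gave 7 lower against warm white, a fit to those groups only gave 5, and library weights gave 12 lower for the difference between the fats. With 1 library left out, lower calls ranged from 5 to 12 for that difference (12 without warm beige 1) and from 7 to 18 against warm white (7 without warm beige 2 or 3). The other counts kept within 1.5 times their value in all these settings.

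Directions reversed for Pes1 on beige warming (-0.04), Imp4 in the difference between the fats (-0.025), Ebna1bp2 in warm beige minus warm brown (-0.005) and Npm1 against warm white (-0.03), all in batch 1 alone. They reversed under quantile normalization for Polr1b on brown warming (-0.048) and Rrp1b between cold depots (-0.0215). Of 7488 alternative values of the named rows, 7119 kept direction and call, 272 lost and 91 gained the call.

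A replicate block of title numbers gave 19 and 14 on beige warming, 21 and 11 on brown warming, 15 and 6 for the difference, 10 and 21 between cold depots, 15 and 23 between warm depots and 3 and 10 against warm white. A block of library numbers, a second numbering in the labels that differs from the titles for some inguinal libraries, gave 19 and 14, 20 and 10, 14 and 6, 11 and 20, 15 and 22, and 4 and 10 in that order. Neither number is stated to mark shared animals. Correlations of deviations within same-numbered pairs ran from -0.11 to 0.148 between the brown groups (best with their own number for 1 of 5) and, by title, from -0.093 to 0.238 between the beige groups (2 of 3). By library number they ran from 0.071 to 0.35 between cold brown and cold beige (best for 4 of 4) and from 0.065 to 0.205 between warm brown and warm beige (3 of 3), a hint from the data that these numbers link depots. Within beige fat they ran from -0.102 to -0.067. As the labels do not say that either number marks shared animals, the main fit used no pairing. The depot comparisons above are therefore unpaired, and a sharing of animals between depots enters only through the replicate blocks. Depth is unknown, so precision rests on the spread between 3 to 5 libraries.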

Other observations

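Between depots, the further lists of the pathway also held genes in both directions. In cold beige minus cold brown, 4 of 29 other small subunit factors were called higher and 10 lower, and 9 of 44 other large subunit factors were higher and 11 lower, beside 34.7% and 27.2% of all rows. Of 14 exosome and decay factors, 6 were higher and 1 was lower. Pno1, a late small subunit factor, differed by -0.92 ± 0.13 (SE, adjusted p = 3.29e-06), and Mnt, a repressor that pairs with the Myc partner Max, by 1.45 ± 0.15 (SE, adjusted p = 2.48e-08). In warm beige minus warm brown, Ubtf was higher by 1.13 ± 0.08 (SE, adjusted p = 5.69e-11), and Polr2e, a subunit shared by the nuclear RNA polymerases, was lower by 1.70 ± 0.13 (SE, adjusted p = 1.39e-10). Sirt7, a nucleolar deacetylase, was higher by 1.25 ± 0.11 (SE, adjusted p = 4.95e-10) and Mtor lower by 1.03 ± 0.09 (SE, adjusted p = 1.7e-09). Against warm white, 5 of 19 regulators were lower in warm beige and 2 higher, beside 22.4% and 17% of all rows, and Mlx, a Max-like factor, was lower by 1.15 ± 0.10 (SE, adjusted p = 1.32e-08).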
